A study of Trichoderma reesei QM6a with 4 samples.

Results

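Of the 9127 Trichoderma reesei genes on the array, 61 had at least 3 probes well above background on both arrays of the mutant AT01 and no such probe on either wild-type array. The genes were chosen by the detection flags of all 4 arrays, so every value below that sets AT01 against the wild type describes the choice and carries no test. The opposite choice, 3 probes detected on each wild-type array and none on either AT01 array, found 0 genes. Levels are therefore given on a quantile-normalized log2 scale, which gives all 4 arrays the same distribution of probe signals. Nearly all of the genes are known only by a locus number: 60 of the 61 matched a locus of the QM6a reference by number, all 60 are protein coding there, and 1 has a symbol.

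The study set AT01, a mutant that the submitters describe by its high copper accumulation, against wild-type T. reesei QM6a. Both strains grew at 25 °C for 5 d with 1 mM copper sulfate in YPD, which is made of yeast extract, peptone and dextrose. Both were thus given the same added copper, and these data hold no measure of copper within the cells. Total RNA of mycelium was labelled with the dye Cy3 and hybridised to 1-colour Agilent arrays, 2 per strain. AT01 is a single strain, its mutated gene was not analysed here, and no label ties the arrays of a strain to cultures of their own. The spread between them, on which any p-value of the fit rests, may be technical.

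Trichoderma reesei is a filamentous soil fungus used in industry for its secreted cellulases. Copper is a cofactor of fungal oxidases and of superoxide dismutase, and in excess it damages cells, so fungi balance uptake by membrane transporters against binding by metallothioneins, storage and export. A spot is flagged as well above background by the image software when its background-subtracted signal is positive, differs from the background and exceeds the background's own noise by a set margin. A gene without that flag may still give signal.

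Signals were brighter on the AT01 arrays. The 75th percentile of processed signal, the background-subtracted brightness of a spot, was 41.6 and 40.0 on the AT01 arrays against 20.9 and 22.2 on the wild-type arrays. Of 43565 probes, 61.0% and 60.3% were well above background on the AT01 arrays, against 48.0% and 46.0% on the wild-type arrays. Arrays of the same strain correlated at 0.991 for AT01 and 0.988 for the wild type across 8018 genes, and arrays of different strains at 0.942 to 0.951. All 4 arrays lay on 1 slide, the AT01 arrays at the positions after the wild-type ones, so strain and slide position cannot be told apart. Among growth markers, the hyphal hydrophobin hfb1 had 4 of 4 probes well above background on every array, at quantile levels of 5.87 and 5.86 in AT01 and 5.24 and 5.30 in the wild type. The hydrophobin of sporulating cultures, hfb2, lay at 2.46 and 2.40 in AT01 and 2.42 and 2.30 in the wild type. Only 2 of its 4 probes were well above background on each AT01 array and 1 on each wild-type array, so these levels are near the limit of detection. Levels of the polyketide synthase gene pks4, also planned as a marker, are not given. In RNA from whole mycelium, fewer cells that express a gene and less of its RNA per cell cannot be told apart.

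The 61 genes carried 299 probes, 5 for each of 55 genes and 4 for each of the other 6. On both AT01 arrays 214 of these probes (71.6%) were well above background, 34 were so on 1 AT01 array, and 51 on neither. The lower of the counts on the AT01 arrays was 3 probes in 31 genes, 4 in 24 genes and 5 in 6 genes. In 58 genes the same 3 or more probes carried the flag on both AT01 arrays, and in 8 genes every probe did. Detection was thus repeated by the same probes in most of the genes, though about as many genes sat at the minimum of 3 as above it.

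The detected signals were dim. The median processed signal of the 299 probes was 10.7 and 10.5 on the AT01 arrays, against 3.47 and 2.89 on the wild-type arrays. The brightest of these probes reached 72.9 and 66.7 on the AT01 arrays, against 7.06 and 7.82 on the wild-type arrays. The lowest signal that any probe carried with the flag was 7.65 and 7.48 on the AT01 arrays and 7.07 and 7.84 on the wild-type arrays. The limit of detection was thus near the same raw brightness on all 4 arrays, and the brightest wild-type probes of these genes lay just under it.

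Absence from the wild type depended on which flag was read. A softer flag marks a spot as positive and significantly above background. By that flag, each of the 61 genes had at least 1 probe with signal on both wild-type arrays, and 49 had at least 3. It marked 97.3% and 98.3% of the genes' probes on the AT01 arrays, against 75.3% and 71.2% on the wild-type arrays. The shares over all probes were 83.8% and 83.2% on the AT01 arrays, against 76.3% and 73.3% on the wild-type arrays. Of 153 negative control spots the same flag marked 2 and 2 on the AT01 arrays and 2 and 4 on the wild-type arrays. The name "detected only in AT01" therefore holds for the stricter flag alone, and the genes are called here by their rule: well above background on AT01 arrays only. With the softer flag in the rule, 4 other genes qualified, none of them among the 61, and the opposite choice gave 0.

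The surplus on the AT01 side was large with the deposited flags and was not kept once the arrays counted alike. With at least 1 probe, 455 genes were well above background on AT01 arrays only and 10 on wild-type arrays only. At 2 probes the counts were 144 and 2, at 4 probes 30 and 0, and at 5 probes 6 and 0. When only the brightest 20484 probes of each AT01 array were counted as detected, as many as the wild-type arrays had on average, 9 of the 61 genes still met the rule and 8 genes met the opposite one. At 1 probe the counts then were 92 genes on the AT01 side and 180 on the wild-type side, and at 2 probes 21 and 26. A quantile level of 3.3, at which wild-type probes carried the flag at least as often as not, was also used as the limit on the AT01 arrays. The wild-type arrays kept their deposited flags. By that limit 10 of the 61 met the rule and 7 genes met the opposite one. The count also moved with the arrays used: without wild-type array 1 it was 117 genes, and without any other array 81 to 86, all 61 among them each time.

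**Figure D1:**
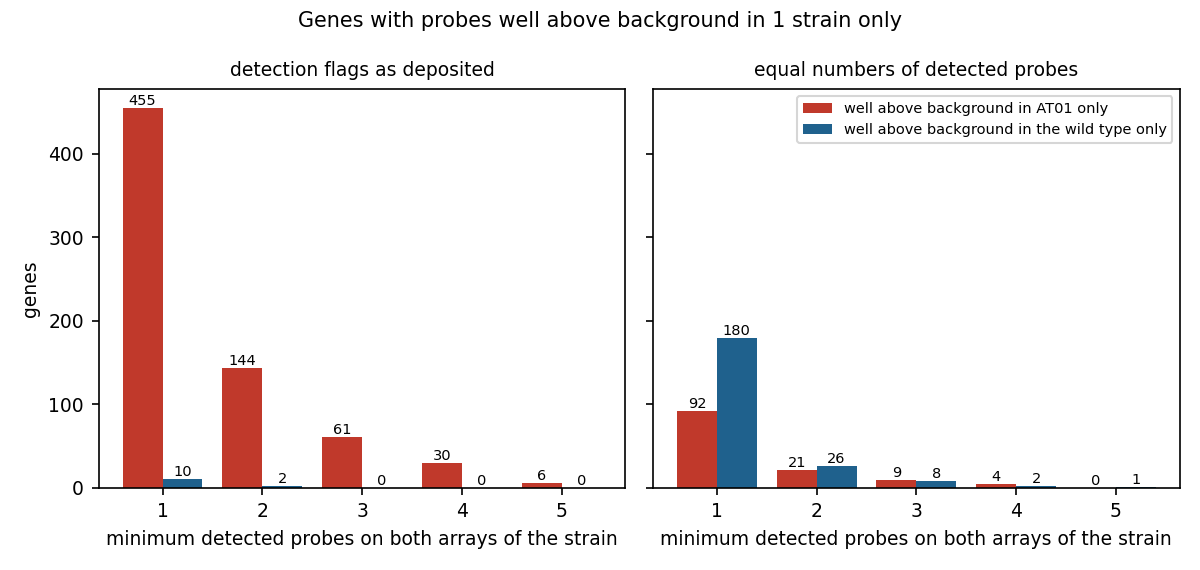
Number of genes well above background in 1 strain only (vertical axis) against the least number of probes required on both of its arrays (horizontal axis), for AT01 and for the wild type, with the deposited flags and with equal numbers of detected probes. At 3 probes the AT01 and wild-type counts are 61 and 0 with the deposited flags, and 9 and 8 with equal numbers.

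The 9 genes that met the rule at equal numbers of detected probes are TRIREDRAFT_61588, TRIREDRAFT_79694, TRIREDRAFT_77969, TRIREDRAFT_78852, TRIREDRAFT_78437, TRIREDRAFT_64138, TRIREDRAFT_76125, TRIREDRAFT_77025 and TRIREDRAFT_108573. The level of 3.3 on the AT01 arrays kept the same 9 and TRIREDRAFT_108985. On the quantile scale the 9 lay 0.93 to 2.47 log2 units higher in AT01, with a median of 1.67. The other 52 lay from -0.33 to 2.52, with a median of 0.95. Both AT01 arrays were above both wild-type arrays in all 9 and in 42 of the other 52, where 31.7% of all genes tested were. The 9 were kept by their brightness on the AT01 arrays, so their separation follows from that choice.

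On the quantile scale the 61 genes were of low to middle level in AT01 and low in the wild type. Their median level was 2.77 and 2.86 on the AT01 arrays, against 2.04 and 1.90 on the wild-type arrays. The median over all 8018 genes tested was 3.52 and 3.52 on the AT01 arrays and 3.51 and 3.49 on the wild-type arrays. By the strain mean, 7 of the 61 genes lay above the median of all genes in AT01 and 0 in the wild type. Ranked among all array genes, the median member stood at the 42.2 percentile in AT01 (range 25.7 to 70.3) and the 25.1 percentile in the wild type (range 7.43 to 46.8). Few of the genes were thus strongly expressed even in the strain that detected them.

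The difference between the strain means of quantile level, AT01 minus wild type, ran from -0.33 to 2.52 with a median of 1.02, beside a median of -0.016 over all genes tested. With each array scaled to its 75th percentile instead, it ran from -0.33 to 2.27 with a median of 0.93, beside -0.23 over all genes. On the quantile scale 31 of the 61 genes differed by at least 1 log2 unit, where 4.63% of all genes tested were at least 2-fold higher in AT01. Another 15 differed by under 0.5, among them 3 at or below 0. No wild-type level of these genes was well above background, and many of their wild-type probes lay at the floor of the array, so each difference describes measured values and is no fold change. With normexp background correction, whose offset of 50 exceeds the median signal of these probes on every array, the median turned to -0.11, beside -0.17 over all genes. Under that setting the sign turned in many of the genes named below, chi18-rel2 and TRIREDRAFT_34221 among them, but not in TRIREDRAFT_108985, TRIREDRAFT_61588, TRIREDRAFT_79694, TRIREDRAFT_77969, TRIREDRAFT_78852 or TRIREDRAFT_78437. The SD between arrays of a strain, averaged over these genes, was 0.11 in AT01 and 0.26 in the wild type (n = 2 each). The widest gap between wild-type arrays was at TRIREDRAFT_57274, named for that reason after its values were seen, with 2.78 and 2.91 in AT01 against 1.14 and 2.35 in the wild type. In 47 genes the difference was larger than the gap between the arrays of either strain, a count not made over all genes tested. These counts follow from the choice of the genes, and nothing is read from them.

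Both AT01 arrays lay above both wild-type arrays in 51 of the 61 genes on the quantile scale, where 31.7% of all genes tested did so. By 75th percentile scaling 54 did, where the share over all genes was 24.7%. The limma fit over all genes, with Benjamini-Hochberg adjustment at 0.05, called 41 of the 61 higher in AT01 on the quantile scale (15.2% of all genes) and 42 by 75th percentile scaling (14.6% of all genes), 39 of them in both. It called 0 of them lower in either. After normexp the count of 42 became 5, where 926 of the 8018 genes tested were called higher. Since the rule used this contrast, the counts are a description.

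**Figure D2:**
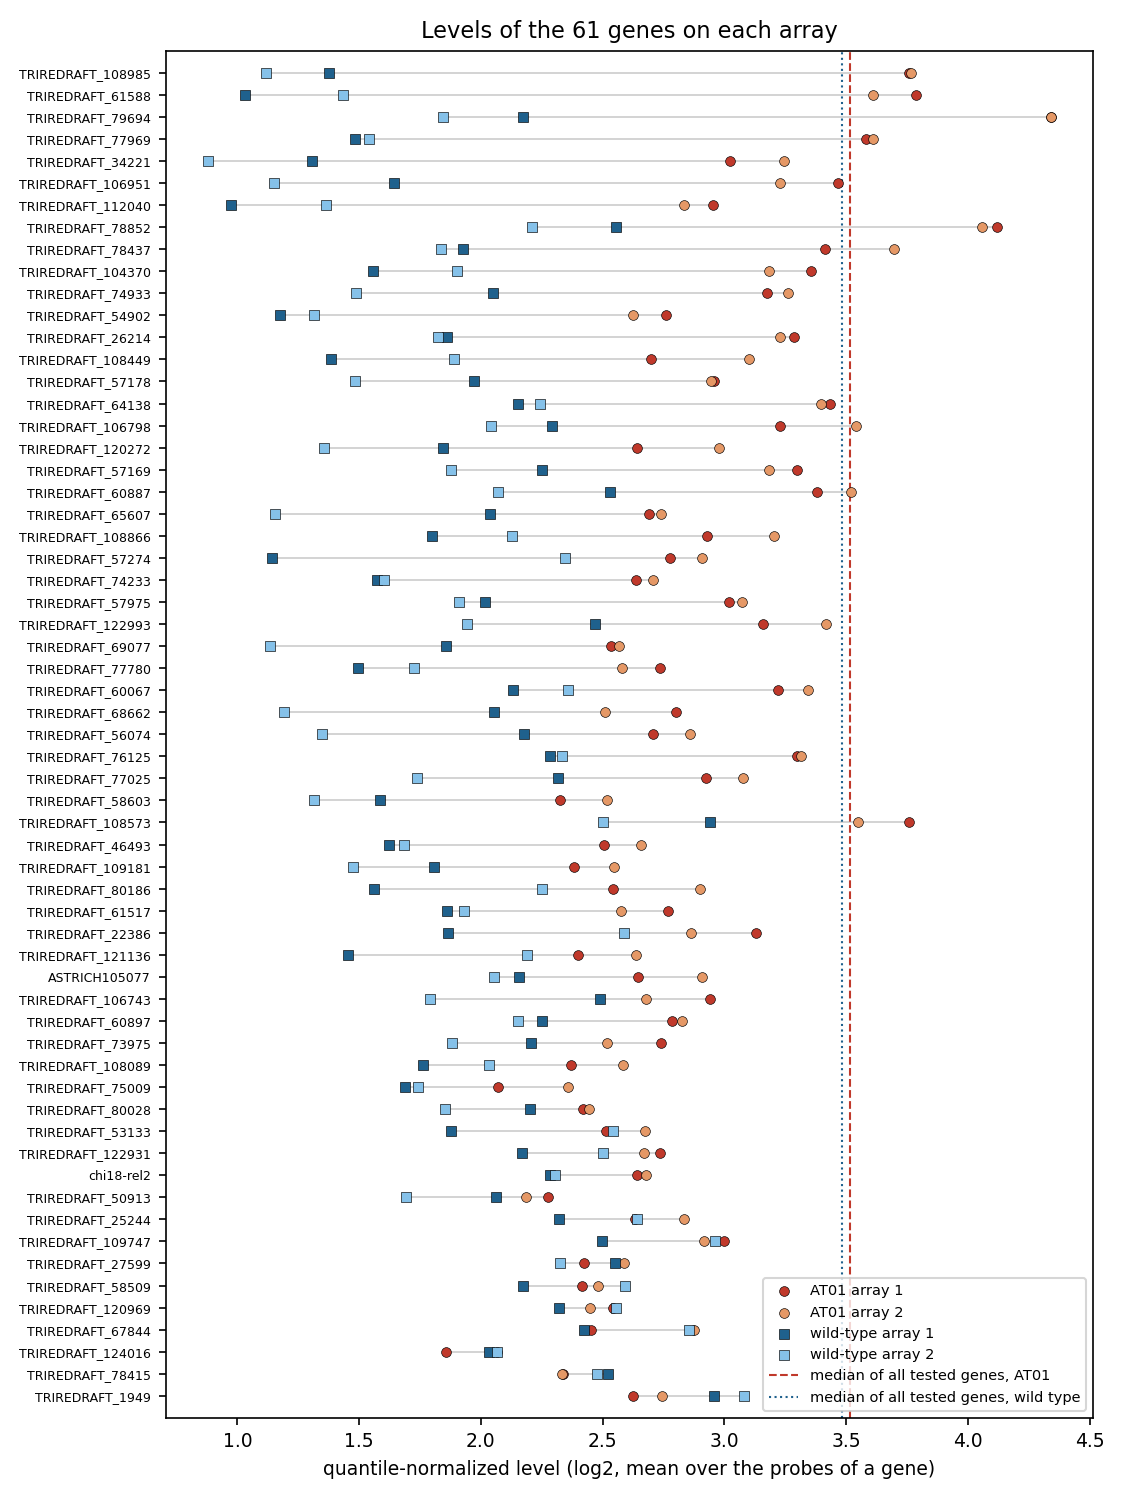
Quantile-normalized log2 level (horizontal axis) of each of the 61 genes (rows) on the 2 AT01 and the 2 wild-type arrays, ordered by the difference between strain means, with the median of all genes tested as a dashed line for AT01 and a dotted line for the wild type. Both AT01 points lie right of both wild-type points in 51 genes and not in the other 10, where in TRIREDRAFT_1949 and TRIREDRAFT_78415 both lie left.

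The genes described next were named for the difference between measured levels or for their level in AT01, and none of them has a symbol in the reference. TRIREDRAFT_108985 had quantile levels of 3.76 and 3.77 in AT01 and 1.38 and 1.12 in the wild type, where 3 of its 5 probes on array 1 lay at the floor. The processed signal of its brightest probe was 56.6 and 56.5 on the AT01 arrays, against 4.66 and 2.49 on the wild-type arrays. All 5 of its probes were well above background on both AT01 arrays, although only 3 and 2 of them stayed among the brightest 20484, which is why it left the set of 9. TRIREDRAFT_61588 had levels of 3.79 and 3.61 in AT01, against 1.03 and 1.43 in the wild type. In both genes both AT01 arrays were above both wild-type arrays. The wild-type levels are only known to lie below the limit of the stricter flag, so the size of the difference is not known.

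TRIREDRAFT_79694 was the brightest of the 61 in AT01, at quantile levels of 4.34 and 4.34, against 2.17 and 1.84 in the wild type. Its 5 probes ranged in processed signal from 13.7 to 72.9 on AT01 array 1 and from 16.8 to 66.7 on AT01 array 2. On the wild-type arrays its brightest probes reached 6.57 and 6.08. In unscaled signal the dimmest AT01 probe was thus brighter than the brightest wild-type probe of the gene. The AT01 arrays were brighter as a whole, with 75th percentiles of 41.6 and 40.0 against 20.9 and 22.2, so part of this gap is that of the arrays. In quantile level, both AT01 arrays were above both wild-type arrays at each of its 5 probes, compared probe by probe. TRIREDRAFT_78852 was next in level, at 4.12 and 4.06 in AT01, against 2.55 and 2.21 in the wild type.

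Other genes named for their difference were lower in level. TRIREDRAFT_77969 had 3.58 and 3.61 in AT01, against 1.48 and 1.54 in the wild type. TRIREDRAFT_34221 had 3.03 and 3.25 in AT01, against 1.31 and 0.88 in the wild type. TRIREDRAFT_106951 had 3.47 and 3.23 in AT01, against 1.64 and 1.15 in the wild type. In each of these 3 both AT01 arrays were above both wild-type arrays, and in TRIREDRAFT_34221 and TRIREDRAFT_106951 the AT01 level did not exceed the limit of detection of the wild-type arrays, so the size of the difference is not known. TRIREDRAFT_112040 lay at 2.96 and 2.84 in AT01, against 0.98 and 1.37 in the wild type. For TRIREDRAFT_78437 the levels were 3.41 and 3.70 in AT01 and 1.93 and 1.84 in the wild type. In TRIREDRAFT_104370 they were 3.36 and 3.18 in AT01 and 1.56 and 1.90 in the wild type. Both AT01 arrays were above both wild-type arrays in these 3 as well, though in TRIREDRAFT_112040 and TRIREDRAFT_104370 the AT01 level was again within that limit.

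The remaining genes of the set of 9 had higher wild-type levels than most of those above. TRIREDRAFT_108573 was among the 5 brightest in AT01, at 3.76 and 3.55, against 2.94 and 2.50 in the wild type. Its difference of 0.93 was the smallest of the 9. The other 3, TRIREDRAFT_64138, TRIREDRAFT_76125 and TRIREDRAFT_77025, are named here after their values were seen. TRIREDRAFT_64138 had 3.43 and 3.40 in AT01, against 2.15 and 2.24 in the wild type. TRIREDRAFT_76125 had 3.30 and 3.31 in AT01, against 2.28 and 2.33 in the wild type. TRIREDRAFT_77025 had 2.92 and 3.08 in AT01, against 2.32 and 1.74 in the wild type. Both AT01 arrays were above both wild-type arrays in each of these 3. In TRIREDRAFT_76125 and TRIREDRAFT_77025, however, the AT01 level did not exceed the limit of detection of the wild-type arrays. The size of their difference is thus not known.

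**Figure D3:**
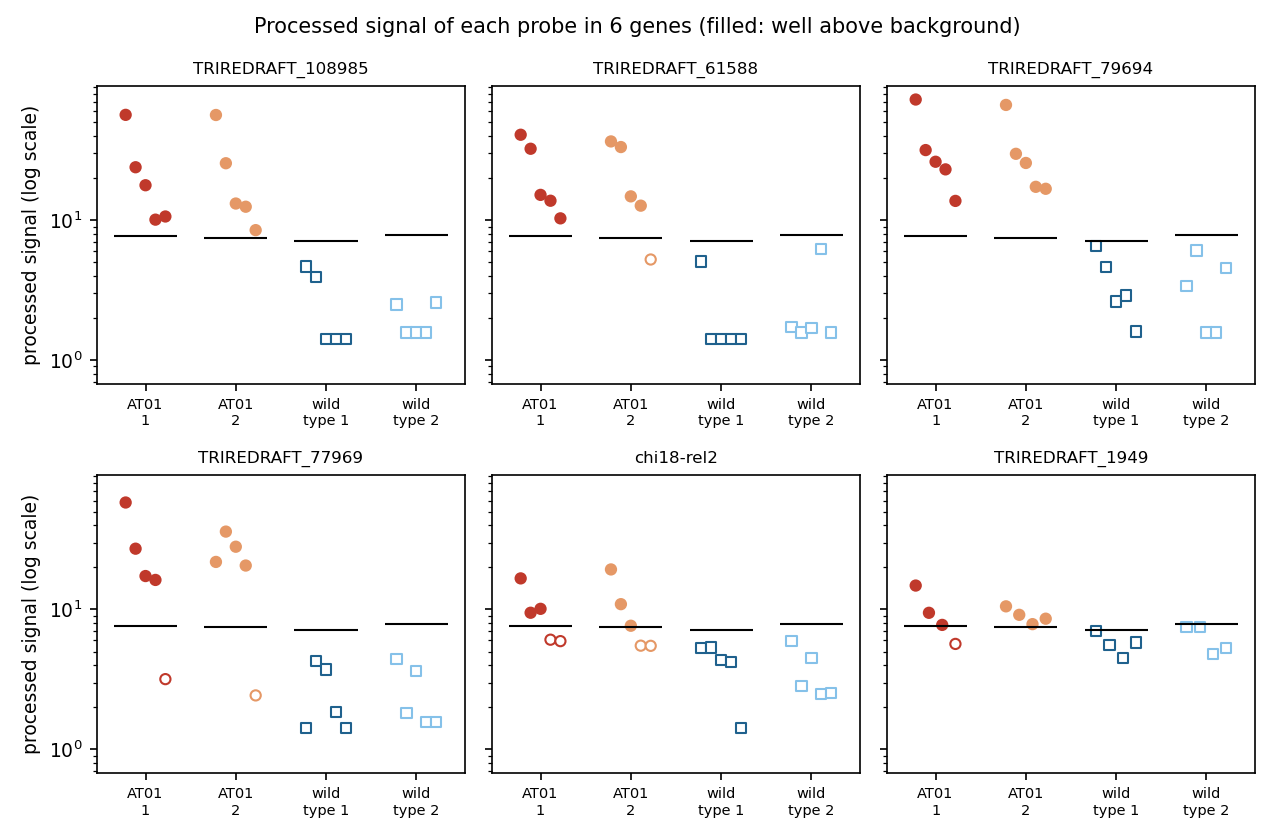
Processed signal (vertical axis, log scale) of each probe of genes named in the text, on the 2 AT01 and the 2 wild-type arrays, with filled points for probes well above background and the lowest flagged signal of an array as a line. In TRIREDRAFT_79694 all AT01 probes lie between 13.7 and 72.9 and no wild-type probe above 6.57. Signals are not scaled between arrays, and the AT01 arrays were brighter as a whole.

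A gene that is not well above background in the wild type has only an upper limit there, so a fold change is a lower bound. It was computed on the 75th percentile scale as the AT01 mean against the lowest flagged level of the wild-type arrays, which lay at -1.56 and -1.50, or the gene's own level where higher. The bound exceeded 1-fold in 10 of the 61 genes, with a highest value of 1.98, and reached 2-fold in none. For TRIREDRAFT_79694 the level was at least 1.98-fold higher in AT01, with measured means of -0.55 in AT01 and -2.79 in the wild type. For TRIREDRAFT_78852 it was at least 1.66-fold higher, with means of -0.80 in AT01 and -2.55 in the wild type. For TRIREDRAFT_108985 it was at least 1.32-fold higher, with means of -1.13 in AT01 and -3.39 in the wild type. In the other 51 genes the AT01 mean itself was at or below that limit, so no fold is given for them, and the differences of measured levels given elsewhere for them have no lower bound above 1-fold.

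The sole gene with a symbol, chi18-rel2 (TRIREDRAFT_121355), is named as a relative of the family 18 chitinases, enzymes of the glycoside hydrolase class that cut the chitin of fungal cell walls. Its quantile levels were 2.64 and 2.68 in AT01 and 2.29 and 2.31 in the wild type, a difference of 0.37. Of its 5 probes, 3 were well above background on both AT01 arrays. The brightest of these had a processed signal of 16.7 and 19.3 on the AT01 arrays and 5.28 and 5.97 on the wild-type arrays. The strains did not overlap in this gene, yet the difference was among the 15 under 0.5.

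At the low end, 3 genes were not higher in AT01 after quantile normalization. TRIREDRAFT_1949 had 2.63 and 2.74 in AT01, against 2.96 and 3.08 in the wild type, and TRIREDRAFT_78415 had 2.34 and 2.33 in AT01, against 2.52 and 2.48 in the wild type. In TRIREDRAFT_124016 the levels were 1.86 and 2.07 in AT01 and 2.03 and 2.07 in the wild type. In the first 2 both wild-type arrays lay above both AT01 arrays, and in TRIREDRAFT_124016 the strains overlapped. Their differences were -0.33, -0.16 and -0.088, and they are the smallest among the 31 genes at the threshold, those with 3 probes as the lower AT01 count. The sign in TRIREDRAFT_78415 and TRIREDRAFT_124016 turned under some other probe choices and scalings. For TRIREDRAFT_1949 the brightest probe gave 14.8 and 10.5 on the AT01 arrays and 7.06 and 7.48 on the wild-type arrays, just under the limit of detection there.

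Just outside the threshold were 83 genes with 2 probes as the lower AT01 count and none in the wild type. Their differences ran from -0.62 to 1.86 with a median of 0.29, beside a median of 0.70 over the 31 genes at 3 probes, 1.06 over the 24 at 4 probes and 1.83 over the 6 at 5 probes. The 3 genes given next were picked from these 83 for their large differences. TRIREDRAFT_112440 lay at 3.16 and 2.82 in AT01, against 1.31 and 0.95 in the wild type. TRIREDRAFT_58971 lay at 2.91 and 3.04 in AT01, against 1.13 and 1.44 in the wild type. TRIREDRAFT_108345 lay at 3.42 and 3.06 in AT01, against 1.52 and 1.97 in the wild type. Their differences were 1.86, 1.70 and 1.49, the largest of the 83, all of which missed the rule by 1 probe.

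**Figure D4:**
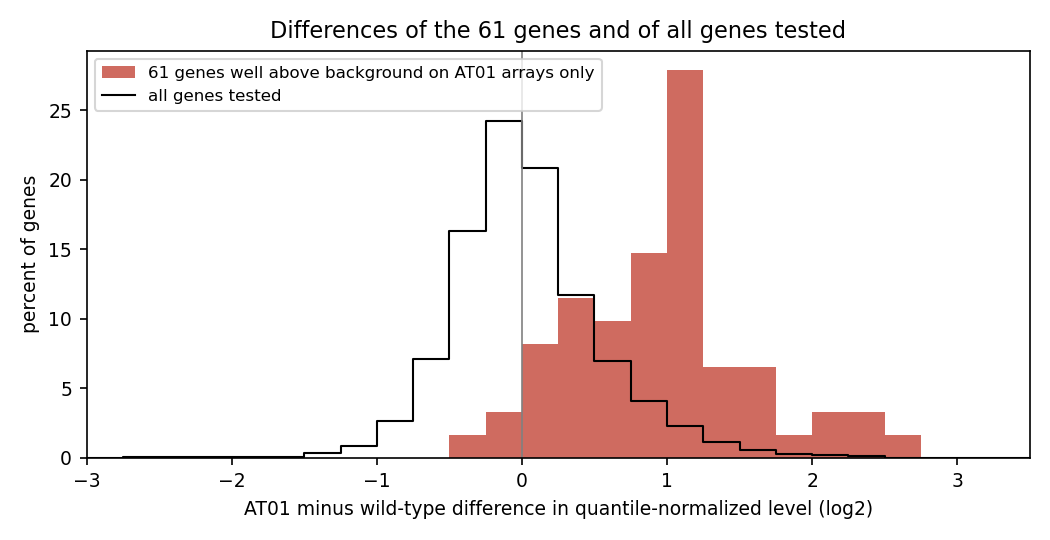
Distribution of the difference in quantile-normalized log2 level, AT01 minus wild type (horizontal axis), for the 61 genes and for all genes tested (vertical axis, percent of genes, with the few genes beyond the axis not drawn). The 61 genes spread from -0.33 to 2.52 with a median of 1.02, and the median of all genes is -0.016.

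Single probes, whose flags the rule used, were compared in the same way. Both AT01 arrays were above both wild-type arrays in quantile level at 203 of the 299 probes (67.9%), where 25.6% of all probes did so. In 18 genes this held for every probe, in 43 for at least 3 probes, and in 2 for none. The same counts were not made over all array genes, so nothing is read from them. At the bottom of the scale, 8 and 5 of the 299 probes lay at the lowest signal of the AT01 arrays, against 74 and 86 at the lowest signal of the wild-type arrays. Over all probes the shares at the floor were 16.2% and 16.8% on the AT01 arrays, against 23.7% and 26.7% on the wild-type arrays, so on the wild-type arrays these genes were close to the array as a whole (24.7% and 28.8%). Values at that floor have no order among themselves.

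Along the genome the 61 genes were mostly apart. By the locus order of the reference assembly, 23 of 62 sequence blocks held a member, and 4 members formed 2 pairs with at most 2 loci between them. TRIREDRAFT_77969 and TRIREDRAFT_61517 were direct neighbours. TRIREDRAFT_61517 had 2.77 and 2.57 in AT01, against 1.86 and 1.93 in the wild type, a difference in measured levels of 0.78 beside the 2.08 of its neighbour. TRIREDRAFT_79694 and TRIREDRAFT_109181 had 2 loci between them, and TRIREDRAFT_109181 had 2.38 and 2.55 in AT01, against 1.81 and 1.47 in the wild type. Both pairs thus joined a gene with a large difference to 1 with a difference of 0.78 or 0.82. Of the loci between the second pair, TRIREDRAFT_109178 differed by 0.51 and TRIREDRAFT_122767, well above background in both strains, by 0.076. TRIREDRAFT_109178 had 3 and 2 probes well above background on the AT01 arrays and 0 on each wild-type array, just outside the threshold. Around all members, the 115 flanking loci that were not members had a median difference of 0.013, beside -0.018 over all array genes. Of these loci 40 (34.8%) had both AT01 arrays above both wild-type arrays. That is close to the 31.7% of all genes tested, which unlike the flanking loci had passed a filter for detection.

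Gene length, which the rule did not use, was near that of the array as a whole. The median over the 60 matched genes was 1556.5 bases (range 300 to 6388) and over the matched array genes 1503 bases, by the reference annotation. A symbol was held by 1.64% of the 61 genes and by 2.48% of all array genes.

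In the value table that the authors deposited, all 61 genes had at least 1 probe, 248 of the 299 probes (82.9%) were present, and 24 genes had all of theirs. The table's differences, computed here from its log2 values as AT01 minus wild type, ran from -0.16 to 1.84 with a median of 0.54, and 60 of the 61 were above 0. The table covered 28201 probes in all, chosen in a way not given in the sources used here. For these genes, the 248 present equal in number the probes well above background on an AT01 array, 214 on both and 34 on 1. None of the genes' probes carried that flag on a wild-type array. The direction in the table can therefore follow from the choice of probes and is no separate evidence. The differences there were smaller than the processed signals gave.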

How the data were processed

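Mycelial RNA of 2 AT01 and 2 wild-type samples was hybridised with Cy3 label to 1-colour arrays, per the labels' protocols. The submitters' processing notes name Agilent Feature Extraction 10.5.1.1. Its intensity values, as deposited, are processed signals with the background subtracted, and each spot carries detection flags, per the file headers. The authors also deposited a table of log2 values, of unstated normalization. The scale was judged from its values, whose columns followed the log2 processed signal of their arrays (Pearson's r 0.993 to 0.996 across probes) and had medians of 4.31.

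Groups came from the sample titles. The members and lists were chosen with earlier results of these data known. Control spots were left out, and a spot marked as an outlier on any array was left out on all 4. The members were found from the flags without that step. The log2 processed signal was scaled to each array's 75th percentile, or quantile-normalized, and probes were averaged per gene. The 8018 genes that had a detected probe, 1 or more, on each array of a strain were fitted with limma 3.58.1 in R 4.3.3, with Benjamini-Hochberg adjustment. On simulated data with 200 changed genes the fit recovered 78.3% of changes of 1 log2 unit and 98.8% of changes of 2, with 4.80% false calls. The number of arrays limits the precision.

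Genes were named by rule: those with a symbol, the 10 with the highest quantile difference, the 5 brightest in AT01, the 2 with the smallest difference, neighbouring members, the 3 with the smallest difference among members at 3 probes, and the 3 with the largest difference among genes at 2 probes. Of the array genes, 9070 (99.4%) matched a locus of the v2.0 reference assembly by number. Coordinates are left out because the files name no build. Alternatives covered the rule, the scaling, the probes used, each array left out and the replicate number as a block. The normexp alternative used the median spot signal, because the mean signal planned for it was not a column of the files. Protein features planned for the members were not computed, and no sequences are given.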

Additional observations from a re-analysis of the deposited data

How the results depend on the processing

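The count of 61 genes became 144 with at least 2 probes, 30 with 4, 6 with 5 and 4 with the softer flag. It was 326 with up to 1 wild-type probe, 9 at equal numbers of detected probes, and 81 to 117 with an array left out. With the quantile level of 3.3 in place of the flag on the AT01 arrays alone, it was 10. The median difference of 0.93 was 1.02 after quantile normalization, 1.04 scaled over detected probes, 0.82 for the brightest probe, 1.02 for probes detected in AT01, 0.54 in the deposited table, 0.72 to 0.92 with an array left out, and -0.11 after normexp with an offset of 50. After normexp 5 of the 61 had AT01 arrays above both wild-type arrays (54 by the scaling used) and 5 were called higher (42 by the scaling used). With an array left out, these counts were 55 to 56 and 24 to 43. Over all genes, 1168 were called higher and 2618 lower in AT01, against 1217 higher and 882 lower after quantile normalization. After normexp 926 were called higher and 5145 lower. The lower count was 896 after loess, 1314 with a common lower limit and 1189 in the deposited table. With an array left out 515 to 1075 were higher and 992 to 2135 lower. Equal replicate numbers did not pair the arrays (correlation of deviations 0.006), and with the replicate number as a block 45 members, 1241 genes higher and 2933 lower were called.

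After normexp the sign turned in TRIREDRAFT_34221 (-0.051), TRIREDRAFT_106951 (-0.032), TRIREDRAFT_112040 (-0.016), TRIREDRAFT_104370 (-0.060), TRIREDRAFT_64138 (-0.042), TRIREDRAFT_76125 (-0.040), TRIREDRAFT_77025 (-0.046), TRIREDRAFT_108573 (-0.057), TRIREDRAFT_109181 (-0.12), TRIREDRAFT_61517 (-0.16), chi18-rel2 (-0.14), TRIREDRAFT_112440 (-0.059) and TRIREDRAFT_58971 (-0.017). TRIREDRAFT_124016 turned to 0.031 with a common lower limit, 0.12 for the brightest probe, 0.21 for probes detected in AT01 and 0.29 in the deposited table. TRIREDRAFT_78415 turned to 0.37 for the brightest probe, 0.19 for probes detected in AT01 and 0.29 in the deposited table. The cause was not tested. Of 276 values of the 23 named genes, 181 moved by less than the spread between arrays, 75 by more and 20 changed sign. Blocks for slide or scan were not run because all 4 arrays shared them, and a filter for detection on all 4 arrays holds no member. Depth of signal over background limits all of these genes.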
